A study of Mus musculus with 2 samples.

Results

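The genes of the ISG15 system and a set of small interferon-induced proteins were read in a comparison of 2 mouse lung squamous cell carcinoma (SCC) cell lines. The set holds 10 genes of the 22479 named on the array: Isg15, Uba7, Herc6 and Usp18 of the ISG15 system, and Bst2, Rsad2, Ifitm1, Ifitm3, Ifi44 and Ifi27l2a. Its members were selected by gene symbol from the deposited table of fold changes, with those fold changes already known, so the values below describe the members and are not evidence about them. The rule found 17 probe sets, the groups of short oligonucleotides with which the array reads a transcript, and each of the 10 members had at least 1. Of these genes, 7 had 1 probe set and 3 had several.

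Both lines, labelled S1 and S2, were derived from KAL lung SCC, a tumour of mice carrying a kinase-dead IKKα allele on both chromosomes (KA/KA, FVB background). They were separated by the surface markers Sca1 and CD24, and S1 is described as the line high in Sca1 and more tumorigenic (KALLU+ in the study's methods), S2 as the line low in Sca1 (KALLU-). Both grew in the same serum-containing medium, and the sources name no interferon, infection or other treatment. Each line was sorted from a single parental line, and each gave 1 sample. Total RNA was read on Affymetrix mouse genome arrays. The authors deposited 1 signed linear fold change of S1 over S2 per probe set, with a minus sign where S1 was lower, for 45101 probe sets. No signal, detection call or p-value stood beside it, so brightness over background is unknown, no value has an error or a replicate check, and no test between the lines was possible. Every statement on direction and size below compares 2 samples.

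The labels were read against the sorting markers first. Cd24a was lower in S1 at its 3 probe sets, with signed fold changes from -62.5 to -39.7 in the authors' table. Ly6a, which encodes Sca1 and is itself known to be interferon-inducible, had -5.95 at its 1 probe set, against the description of S1 as high in Sca1. Cd24a thus ran the way of the study's sort, in which KALLU+ is the line without CD24, and Ly6a ran against it, so the lines are named by their labels throughout. Of 11 squamous epithelial markers 10 were measured, with log2 fold changes from -0.12 to 0.36; with fold changes alone, whether these markers were present in both lines or in neither cannot be told.

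ISG15 is a small ubiquitin-like protein made in large amounts after type I interferon. It is joined to other proteins by a chain of an activating enzyme (UBA7), a conjugating enzyme (UBE2L6) and a ligase, which in mice is HERC6, and it is taken off again by USP18, a protease that also damps signalling from the interferon receptor. The other members are small or membrane-bound effectors of the same response. BST2 (tetherin) holds budding virions at the cell surface, RSAD2 (viperin) is a radical SAM enzyme that makes a chain-terminating nucleotide, the IFITM proteins hinder fusion of viruses with cell membranes, and IFI27L2A and IFI44 are interferon-induced proteins of less settled function. In bulk RNA a higher value may come from more RNA per cell or from more cells that express the gene, and these cannot be told apart here.

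The members split into 5 that were well above 2-fold higher in the line labelled S1 and 5 that were under 2-fold. The first were Ifi27l2a, Ifi44, Isg15, Bst2 and Usp18. The second were Rsad2, Ifitm3, Ifitm1, Herc6 and Uba7. No member was 2-fold lower. The lowest of the first 5, Usp18, stood 1.91 on the log2 scale above the highest of the others, Rsad2. No member's median lay in between, although single probe sets of Herc6 and Rsad2 did. The first 5 were each read at 1 probe set, and the 3 members with several, Uba7, Herc6 and Rsad2, were all among the others. Ifitm1 and Ifitm3, also under 2-fold, had 1 each. At its probe set of largest change Herc6 was at 1.59, so the width of the gap depends on the use of medians. Of the 17 probe sets 6 were at least 2-fold higher, where 6.73% of all probe sets were. Counting only genes with a probe set of their own, which leaves out Isg15, 4 of 9 were at least 2-fold higher, where 4.69% of all 20679 such genes were. Since the rule was written with these fold changes known, nothing is read from these counts. The median log2 fold change over the 9 genes was 0.67, against -0.04 over all genes, and over 10 genes, with Isg15 at its shared probe set, it was 1.63. It lies in the gap and describes no single member.

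**Figure D1:**
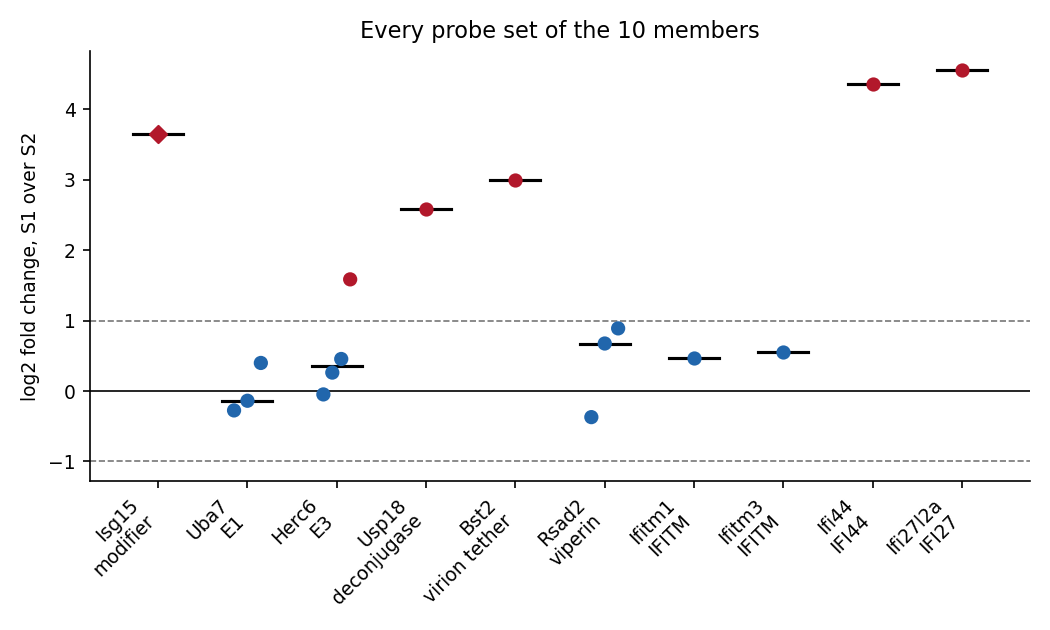
Log2 fold change of S1 over S2 for each of the 17 probe sets, by gene, with the role of its protein. Points are probe sets (red, at least 2-fold higher; blue, less), black bars are gene medians, dashed lines mark 2-fold, and the diamond is the probe set that Isg15 shares with Gm9706; the 5 genes with red medians lie between 2.59 and 4.55, and the other 5 between -0.14 and 0.67.

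Within the ISG15 system, the probe set of the modifier and that of the protease that removes it were over 2-fold higher, while the gene medians of the activating enzyme and the ligase were under 2-fold. Isg15 had a fold change of 12.5 in the authors' table, a log2 value of 3.64, in place 75 from the top of all 45101 probe sets. Its 1 probe set is annotated with both Isg15 and Gm9706, a pseudogene on chromosome 17, so its signal cannot be assigned to Isg15 alone by name. Another probe set names Gm9706 by itself, and its fold change was 1.22. Both probe sets are of types open to cross-hybridisation, so neither can be taken as a clean reading of 1 gene.

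Usp18 had a fold change of 6.01 at its 1 probe set, a log2 value of 2.59. Usp18 had the highest log2 fold change among 49 genes of the array whose symbol starts with Usp and a number. Most of these are ubiquitin-specific proteases, and the group, which also takes in Usp6nl, was picked by symbol after its values had been seen. The next was Usp9x at 1.77. In all 8 of the 49 reached 2-fold higher and 0 reached 2-fold lower, where 4.69% and 5.08% of all genes did. The median of the 49 was 0.06.

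Uba7, the activating enzyme, had signed fold changes of -1.21, -1.10 and 1.32 at its 3 probe sets. These straddle no change, with a log2 median of -0.14. Herc6, the ligase, was read by 4 probe sets, which differed widely, with log2 values of -0.05, 0.26, 0.45 and 1.59. One of the 4 was thus past 2-fold and the gene median, a log2 value of 0.36, was not. Which transcripts each probe set reads is not given in the table, so the spread of 1.63 on the log2 scale within Herc6 was not traced further.

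Ube2l6, the conjugating enzyme of the system, is not among the 10 members. Its 1 probe set gave a log2 value of -0.95, just short of 2-fold lower. Of a list of 10 other genes of the ISG15 pathway, 9 were measured, with a median of 0.08. By gene median 0 reached 2-fold in either direction, where 4.69% of all genes were higher and 5.08% lower. Read at the probe set of largest change, 3 were at least 2-fold higher: Usp14 at 1.12, Arih1 at 1.09 and Herc4 at 1.08. These genes have 4, 5 and 4 probe sets, and genes with more probe sets have more chances to reach 2-fold. The share of all genes read that way is not given here, so nothing is read from this count. The values that follow are gene medians. Trim25, a ligase linked to ISG15 conjugation, was at 0.12 and Arih1, another such ligase, at 0.08. Herc4, a relative of Herc6, had the highest gene median of the list at 0.81. Usp5, Usp16 and Usp14, proteases with some reported activity on ISG15, were at -0.56, -0.20 and 0.13. Itgal, a subunit of the LFA-1 integrin that binds secreted ISG15, was at -0.10.

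The activating enzymes and modifiers of the other ubiquitin-like systems were read beside these. Of 9 other activating-enzyme genes, 3 were at least 2-fold higher and 0 lower, where 4.69% and 5.08% of all genes were. The median over the 9 was 0.20, which turns to -0.37 when each gene is read at its probe set of largest change. Uba6 had a log2 median of 1.55 but ranged from -0.21 to 2.01 over its 5 probe sets. Uba3 and Nae1, which together form the activating enzyme for NEDD8, were at 1.42 and 1.21, and Uba1, the main one for ubiquitin, at -0.38. Of 13 other ubiquitin-like modifiers 11 were measured, with a median of -0.11 and values from -1.001 to 0.52, and none came near the 3.64 of the Isg15 probe set. Atg12, at the lower end, was the 1 modifier at 2-fold lower.

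Ifi27l2a and Ifi44 had the highest values of the set. Ifi27l2a had a fold change of 23.5 at its 1 probe set, in place 27 of all probe sets from the top, and Ifi44 had 20.5 at its 1 probe set, in place 35. Bst2 followed with 7.97, in place 139. These 3 genes and Usp18 lay above percentile 99.6 of all genes by their log2 fold changes. Each rests on 1 probe set, so no second reading of the same transcript bears on it.

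The remaining members were all under 2-fold. Ifitm1 had a fold change of 1.38 and Ifitm3 of 1.47, at 1 probe set each. The 3 probe sets of Rsad2 did not agree in direction, with signed fold changes of -1.29, 1.60 and 1.85 and a log2 median of 0.67. For scale, 79 probe sets for odorant (Olfr) and vomeronasal (Vmn) receptors, taken as silent in both lines and chosen after the values had been seen, had log2 fold changes from -0.55 to 0.38. By gene median, Ifitm1, Ifitm3 and Rsad2 lay above that range and Uba7 and Herc6 inside it. Single probe sets differed from this: Uba7 at 0.40 and Herc6 at 0.45 and 1.59 lay above the range, and Rsad2 at -0.37 lay inside it. The receptor probe sets speak for dim probe sets only.

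**Figure D2:**
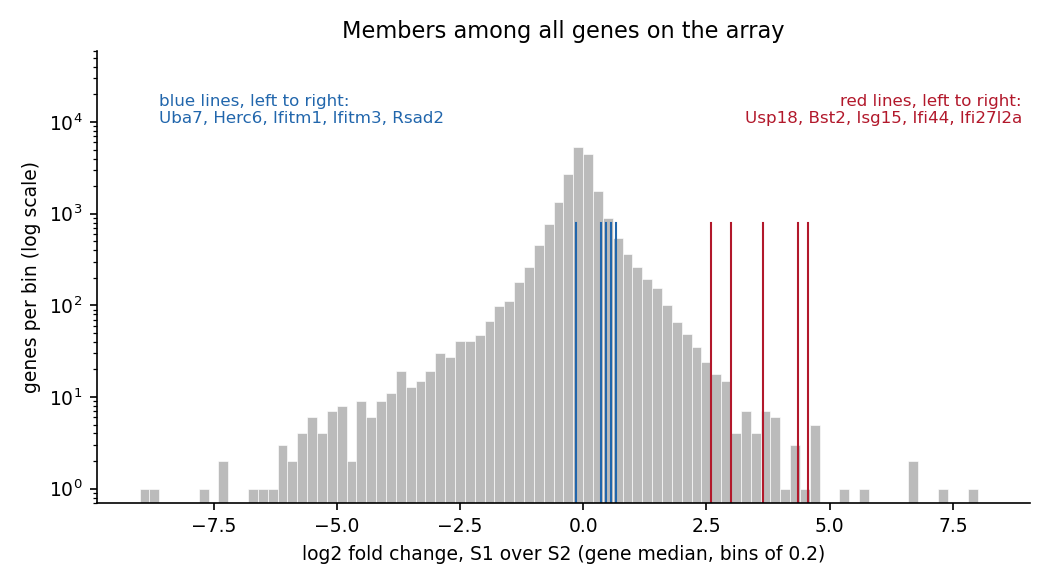
Distribution of the log2 fold change of S1 over S2 over 20679 genes (grey bars, bins of 0.2, log scale of counts), with the 10 members as vertical lines, red at 2-fold or more and blue below. The 5 red lines stand in the upper tail, from 2.59 to 4.55, and the 5 blue lines stand lower, from -0.14 to 0.67. Of the blue lines, Uba7 lies at percentile 37.06 of all genes. Herc6, Ifitm1, Ifitm3 and Rsad2 lie on the upper side of the peak, from percentile 85.45 to 92.02.

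The promoters of the members were then read for the sequences that interferon-activated factors are known to bind. Whether such sequences bear on the size of the fold changes was not tested. RefSeq's promoter table (GRCm38.p6), from 250 bases before to 50 after each start, held 8 of the 10 members; Usp18 and Ifi27l2a had no entry. Both strands were searched for a core of the interferon-stimulated response element (ISRE) in the form GAAANNGAA, for the same element in the form AAANNGAAA, which overlaps the first and was added after its matches had been seen, and for a core of the gamma-activated site, TTCNNNGAA. Of all 32851 promoters in the table, 8.56% held the first, 10.6% the second and 8.30% the third. The stretches that hold the ISRE matches are printed for 3 members above 2-fold and 3 below it, so that both kinds can be compared. Each is 80 bases on the gene's own strand, with the matches to either ISRE form in capitals.

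Isg15 (12.5-fold, chr4:156200846-156200925, minus strand): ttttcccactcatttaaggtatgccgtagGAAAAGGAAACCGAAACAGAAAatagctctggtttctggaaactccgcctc
Bst2 (7.97-fold, chr8:71537555-71537634, minus strand): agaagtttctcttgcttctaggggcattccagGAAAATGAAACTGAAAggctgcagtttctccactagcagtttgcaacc
Ifi44 (20.5-fold, chr3:151749895-151749974, minus strand): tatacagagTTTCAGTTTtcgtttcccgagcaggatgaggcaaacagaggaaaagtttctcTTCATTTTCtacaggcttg
Ifitm3 (1.47-fold, chr7:141010715-141010794, minus strand): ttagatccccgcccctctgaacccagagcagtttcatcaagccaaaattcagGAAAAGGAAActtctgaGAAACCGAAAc
Rsad2 (median 1.60-fold, chr12:26456524-26456603, minus strand): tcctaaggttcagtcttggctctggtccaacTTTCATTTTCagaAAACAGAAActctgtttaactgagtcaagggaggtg
Uba7 (median log2 value -0.14, chr9:107975505-107975584, plus strand): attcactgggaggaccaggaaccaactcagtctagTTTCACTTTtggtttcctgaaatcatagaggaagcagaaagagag

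Isg15 held the longest run, with 3 overlapping matches of the first form whose first bases lie at -78, -72 and -66 relative to the start. Bst2 held 2 overlapping matches of it, and Ifi44 held 1 across the start itself. Matches of the first form were also found in Ifitm3, with 2 just after the start, and in Rsad2, with 1, both under 2-fold. Uba7 held a match of the second form alone, and Herc6 and Ifitm1 held neither. By the first form, 3 of 3 promoters of members above 2-fold and 2 of 5 below it held a match, and by the second form 3 of 3 and 3 of 5. The gamma-activated site core was found in Bst2, among the members above 2-fold, and in Ifitm3, among those below. A match is a run of letters and shows no binding, and these windows do not reach distant elements or other start sites.

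**Figure D3:**
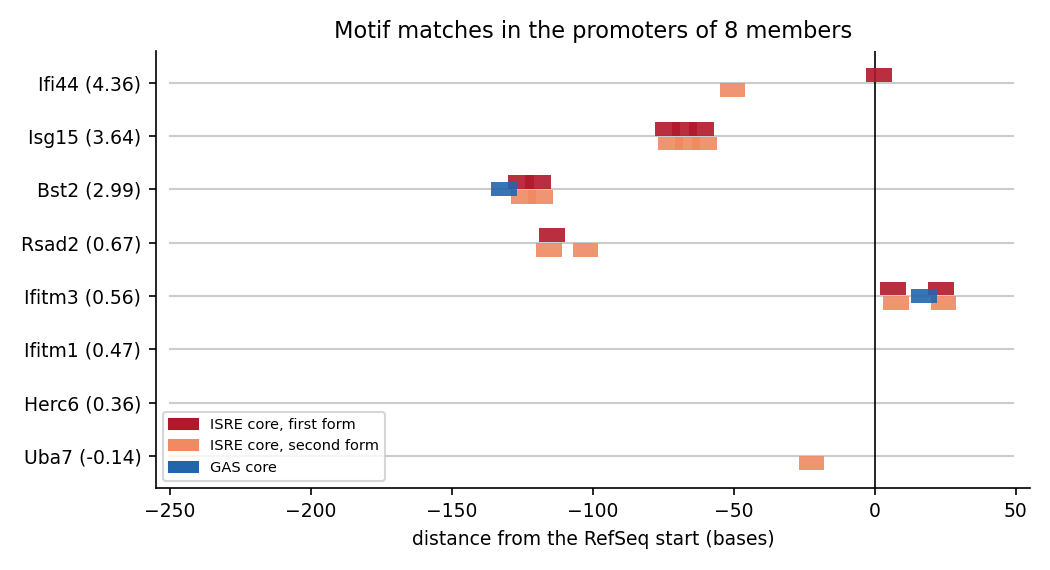
Matches of the ISRE core in its 2 forms (red and orange) and of the gamma-activated site core (GAS, blue) in the promoters of 8 members, against the distance in bases from the RefSeq start, which is at 0. The log2 fold change of S1 over S2 stands in brackets after each gene, and genes are ordered by it; Isg15, Bst2 and Ifi44 at the top hold matches, and so do Rsad2, Ifitm3 and, by the second form, Uba7.

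The genes beside the members were read next. In the order of RefSeq genes, the 3 measured protein-coding genes on each side of every member gave 54 neighbours, leaving out the members themselves. Among them 3 were 2-fold or more higher and 2 were 2-fold or more lower, shares of the same order as the 4.69% and 5.08% over all genes, and their median log2 fold change was -0.03. Around the 5 members above 2-fold there were 30 neighbours, of which 1 was at least 2-fold higher, Agrn next to Isg15 at 1.08. Tuba8 and Slc6a12, beside Usp18, were at -3.40 and -1.59.

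Ifi27l2a differed from the adjacent genes of its own family. It had a log2 value of 4.55, while its neighbours of the same family on chromosome 12, Ifi27 (named Ifi27l1 on the array) and Ifi27l2b, were at 0.29 and -0.01. In that annotation Ifi27 lies within the span of Ifi27l2a, so whether any probe set reads both is uncertain. Ifi44 and the adjacent Ifi44l (named H28 on the array) were likewise apart, at 4.36 and -0.15, the latter over 3 probe sets from -0.32 to 0.14. Ifitm1 and Ifitm3 lie beside each other on chromosome 7, with Ifitm6 next to them at 0.24 and Ifitm5 at -0.35. Ifitm2 shares its probe set with another locus, with a signed fold change of -1.16. Rsad2 and its neighbour Cmpk2, a nucleotide kinase induced together with it in many cells, were at 0.67 and 0.45. The next measured gene, Sox11, a transcription factor with no known tie to the interferon response, was at 2.41. Of a list of relatives that leaves out the Usp and activating-enzyme families above, 12 had a probe set of their own and 0 reached 2-fold in either direction, with a median of 0.10.

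**Figure D4:**
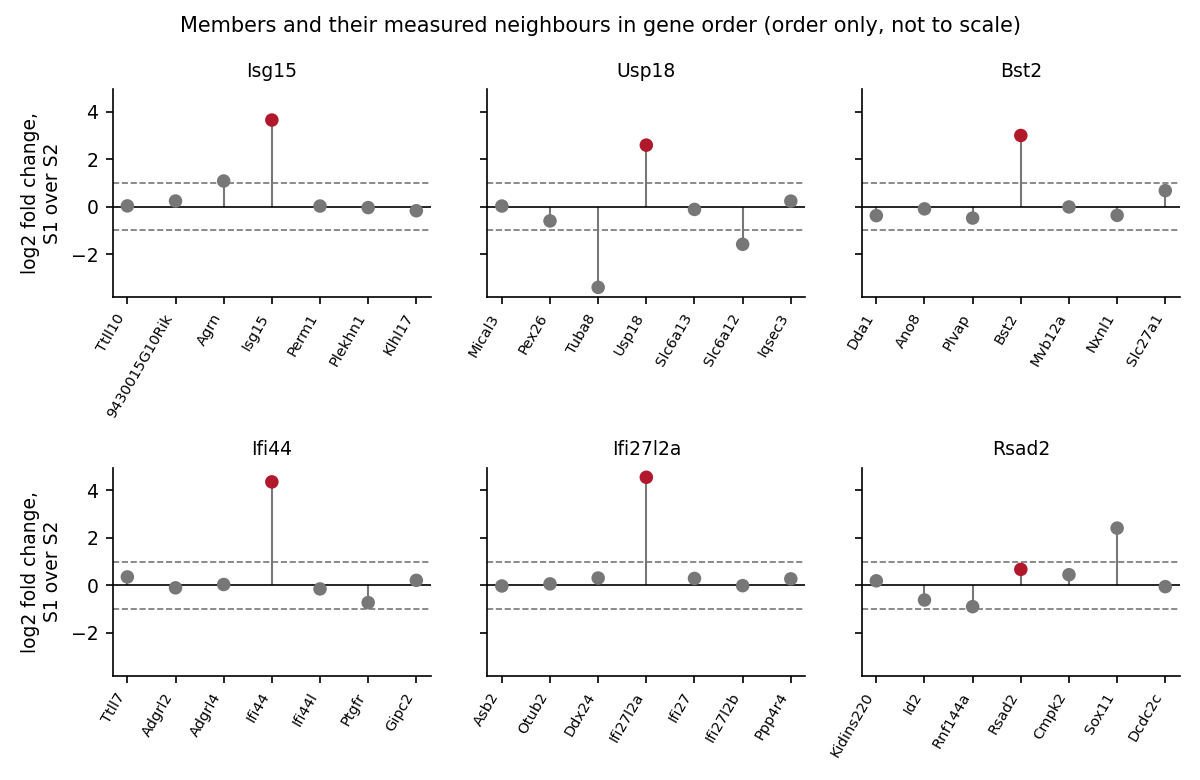
Log2 fold change of S1 over S2 for 6 members (red) and up to 3 measured neighbours on each side (grey) in RefSeq gene order, not to scale; dashed lines mark 2-fold. Isg15, Usp18, Bst2, Ifi44 and Ifi27l2a stand above their neighbours, whose highest value is 1.08, while Rsad2 at 0.67 lies below the nearby Sox11 at 2.41.

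Interferon-induced genes outside the set were likewise uneven. Of 30 other effectors of the response, a list written with earlier results of these data known, 13 reached 2-fold higher and 1 reached 2-fold lower, with a median log2 fold change of 0.67. Over all genes 4.69% reached 2-fold in the upward direction and 5.08% in the downward one. At every probe set 10 of the 30 were at least 2-fold higher, and the 5 largest of these were Ifit1 at 3.52, Cxcl10 at 2.85, Ifit3 at 2.39, Gbp3 at 2.26 and Oas1a at 2.24. Ifit1 and Ifit3 encode antiviral IFIT proteins, which act on viral RNA, Cxcl10 is a chemokine, Gbp3 a GTPase and Oas1a an oligoadenylate synthetase. Near 0 were Mx1 at 0.30, Mx2 at 0.24, Oas3 at 0.08, Gbp2 at -0.10 and Zbp1 at -0.21. Psmb8, an immunoproteasome subunit, was the 1 gene with a median past 2-fold lower, at -1.12, and its 2 probe sets were at -2.24 and -0.01.

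The genes that carry the interferon signal were not among those 2-fold higher. Of 16 signalling genes 0 reached 2-fold higher and 5 reached 2-fold lower, where 4.69% and 5.08% of all genes did. The median over the 16 was -0.21, which turns to 0.24 against control RNAs added before labelling (poly-A controls). The receptor chains Ifnar2, Il10rb, Ifnar1 and Ifngr2 follow each other on chromosome 16, and had log2 medians of -2.40, -2.14, -0.75 and -1.27. The 2 probe sets of Ifngr2 were at -1.90 and -0.64, so it counts as 2-fold lower by its median while 1 of them falls short. Those of Ifnar1 were at -1.15 and -0.34. Jak2, a kinase of the interferon-gamma receptor, was at -1.73, and Irf1 at -1.17. The transcription factors Stat2, Irf9 and Irf7 were modestly above 0, at 0.57, 0.71 and 0.38. Among the interferons themselves, 9 of 20 listed genes had a probe set of their own and 0 were at least 2-fold higher or lower. Ifnb1 had the highest value, 0.44, and Ifng was at -0.18; for genes that may be silent in both lines such values carry little.

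Cells other than the tumour cells were looked for by their markers. Of 14 measured immune cell markers 0 reached 2-fold by gene median in either direction, and their log2 fold changes lay between -0.44 and 0.19, with Ptprc, the pan-leukocyte marker, at -0.05 and Siglech, a marker of plasmacytoid dendritic cells, at -0.0037. The 7 endothelial markers lay between -0.37 and 0.31. Of 9 fibroblast markers, 3 were at least 2-fold lower and 0 at least 2-fold higher, where 5.08% and 4.69% of all genes were. The median over the 9 markers was -0.91. No level of any marker is known from fold changes, and the part of other cells in the members' values was not tested.

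**Figure D5:**
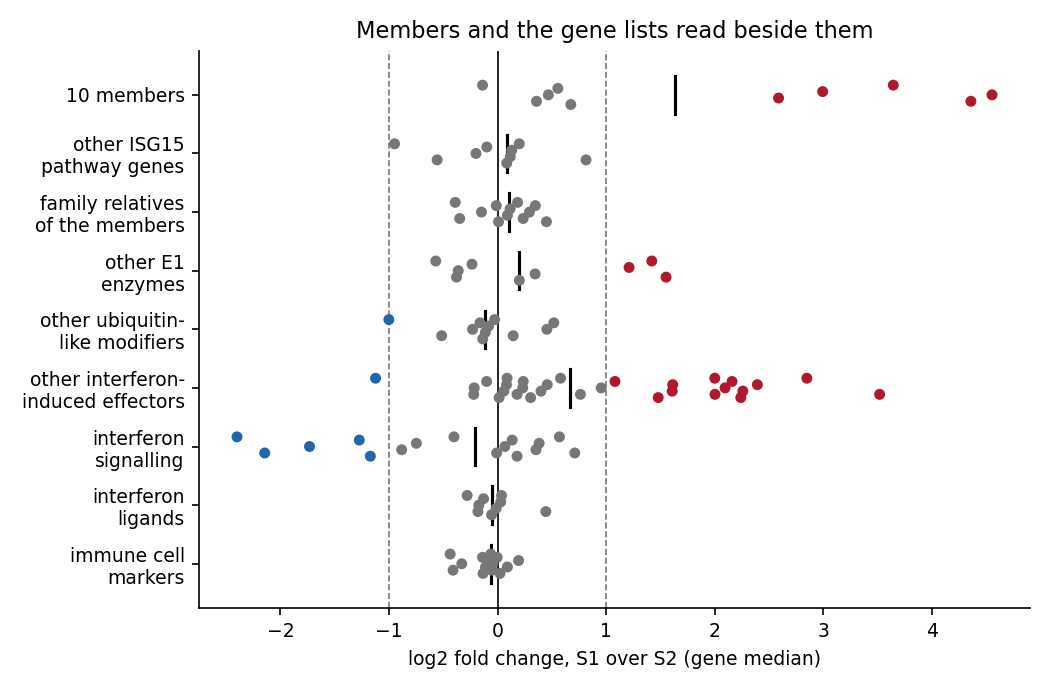
Gene medians of the log2 fold change of S1 over S2 for the 10 members (Isg15 by its shared probe set) and 8 lists read beside them. Points are genes (red, at least 2-fold higher; blue, at least 2-fold lower; grey, between), black bars are list medians and dashed lines mark 2-fold; the members' median of 1.63 falls between their 2 clusters, 13 of 30 other effectors are red, and 5 of 16 signalling genes are blue.

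Scaling between the arrays bears on the members under 2-fold. The 24 probe sets of bacterial RNAs added before labelling (poly-A controls) stood at a median of -0.45 on the log2 scale, and 18 probe sets of hybridisation controls at -0.14. Set against the poly-A controls every log2 value is higher by 0.45. Ifitm3 then just passes 2-fold at 1.001 and Rsad2 passes it at 1.12, while Ifitm1 and Herc6 do not, at 0.91 and 0.80. Uba7 turns from -0.14 to 0.31. All genes on the array are raised alike, so these crossings are not particular to the members. Ifitm3, which just passes, lies at percentile 90.1 of all genes, and every gene above it passes as well. Whether the control RNAs were added in equal amounts is not known.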

How the data were processed

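Total RNA of the lines labelled S1 and S2 (1 sample each) was labelled and hybridised to Affymetrix Mouse Genome arrays. The study's methods name Partek Genomics Suite for the analysis; the submitters' processing notes name MAS5, and which of these set the background correction and normalization, and the number of arrays per line, are not given in the sources used here. The authors deposited 1 signed fold change of S1 over S2 per probe set and no signals, p-values or values per sample; it is the authors' own comparison and was used as the only measurement at hand, with no test.

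Signed fold changes were converted to signed log2 values. Among 45101 probe sets, 5797 carry no gene symbol and 1280 carry more than 1. Genes were summarised by the median of probe sets annotated to that gene only (20679 genes, 9609 with 2 or more probe sets); Isg15, which has none, was read at its shared probe set. Older symbols were matched through RefSeq's gene table (GRCm38.p6), which was used otherwise only for gene order and for promoters. Sizes were counted at 2-fold. The members and lists were chosen with earlier results of these data known. The naming rule was all 10 members with every probe set, each list's counts and median, at most 5 genes in each direction past 2-fold at every probe set of a list, and any gene of the ISG15 pathway, relatives and signalling lists; other genes were named after their values had been seen. For want of replicates, a value was taken to have moved under an alternative when it shifted beyond the SD within genes, pooled over genes with several probe sets (log2, 0.49), and a count when it changed by more than 1.5 times. The steps were tested on simulated data with planted changes well past 2-fold and noise smaller than the SD within genes. That checks the code and not how reliable a call is in these data. Python 3.11.15, numpy 2.4.6, pandas 2.3.3 and matplotlib 3.10.9 were used.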

Additional observations from a re-analysis of the deposited data

How the results depend on the processing

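The alternatives were thresholds of 1.5-fold and 4-fold, leaving out probe sets open to cross-hybridisation, taking each gene's probe set of largest or smallest change instead of its median, and centring on all probe sets or on the poly-A controls; reading Isg15 at its shared probe set and the second ISRE form were added after seeing the data. The counts of members at least 2-fold higher, 6 probe sets and 4 genes, stayed within 1.5 times under each. On the poly-A controls they rose to that limit, at 9 probe sets and 6 genes. The shares over all probe sets and genes shift with each setting too and are not given here. Nothing about the members is therefore read from the counts at other settings. Leaving out probe sets open to cross-hybridisation gave 5 probe sets and left Isg15 with no reading. The median over the 9 genes moved from 0.67 to 1.59 by the largest probe set, which is then that of Herc6, and to 1.63 with Isg15. Of 47 values of single members 44 moved by less than the SD between probe sets; Uba7 moved to 0.40 and Herc6 to 1.59 by the largest probe set, and Rsad2 to -0.37 by the smallest. Genes with 1 probe set cannot move by that choice. The 13 other effectors at least 2-fold higher stayed within 1.5 times, and the 1 lower was 0 at 4-fold, on the poly-A controls and by the smallest probe set. Of the signalling genes 1 was higher at 1.5-fold and 2 on the poly-A controls, where 3 were lower, against 2 at 4-fold. Of 190 values of the remaining lists 170 stayed and 20 moved. List medians near 0 changed sign: activating enzymes from 0.20 to -0.37 by the largest and -0.05 by the smallest probe set. Relative to the poly-A spikes, modifiers went from -0.11 to 0.33, signalling from -0.21 to 0.24, ligands from -0.06 to 0.39, immune from -0.06 to 0.38 and squamous markers from -0.04 to 0.41; the cause was not tested. No paired analysis was possible because each line has 1 sample. Without signals dim probe sets could not be removed, so how far a value stands on background is unknown.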
